A study of Homo sapiens with 9 samples.

Results

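The DNA replication machinery was followed as 49 genes listed by their known function. Each of the 49 had a probe set on the array, among 19775 genes with one, and together they had 89 of the 54675 probe sets. They were grouped as origin licensing factors (9 genes), the replicative helicase and its activators (14), polymerases and primase (9), the clamp, its loader, single-strand binding and strand maturation (11), nucleotide supply (4), and the transcription factor E2F1 with the methylation cofactor UHRF1. Total RNA came from PANC-1, a human pancreatic carcinoma line in long use, and was hybridised to 9 Affymetrix arrays, 3 per group. The dose was chosen by the submitters as the lowest that induced the pancreatic transcription factor PDX1 maximally. The groups were PANC-1 cells exposed for 72 h to 5 uM BRD7552, a small molecule, PANC-1 cells exposed for 6 h to the same dose, and PANC-1 cells given the solvent DMSO, labelled as control with no time. Separate cultures are not stated for the replicates, so the p-values below rest on the spread between these samples alone, which may be technical. The same DMSO arrays served both comparisons with DMSO, and time in culture cannot be told apart from exposure.

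A cell licenses its origins in G1, when the origin recognition complex, CDC6 and CDT1 load the MCM ring onto DNA, and geminin (GMNN) blocks a second loading. On entry into S phase the kinase CDC7 with DBF4 and the cyclin-dependent kinases switch the ring on by joining it to CDC45 and the GINS complex, which together form the active helicase, and the polymerases follow with the sliding clamp PCNA, placed by replication factor C. Many of these genes are transcribed by E2F factors when the retinoblastoma protein is released at the end of G1.

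Promoter sequence from RefSeq was used for 43 of the 49 genes, all but MCM4, MCM5, GINS4, POLD3, RPA2 and RPA3 (build GRCh38.p14, 250 bases before to 50 after the annotated start). The named stretches below are the 160 bases before the start, printed 5′ to 3′ on the strand of the gene. Capitals mark matches, on either strand, to the letters TTTCCCGC, TTTGGCGC, TTTCGCGC and TTTGCCGC, which are spellings of the E2F element. Every promoter shown was picked among those with a match. GINS2, RFC3 and MCM6 are shown as genes that fell at 72 h, and E2F1 because it encodes a factor of that element and carries matches itself. TYMS is shown as a gene with a match whose brightest probe set did not pass the test.
GINS2, chr16:85688955-85689114, minus strand: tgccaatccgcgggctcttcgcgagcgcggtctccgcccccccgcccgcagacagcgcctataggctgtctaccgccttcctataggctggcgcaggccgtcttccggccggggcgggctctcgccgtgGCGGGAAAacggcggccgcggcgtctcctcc
RFC3, chr13:33817989-33818148, plus strand: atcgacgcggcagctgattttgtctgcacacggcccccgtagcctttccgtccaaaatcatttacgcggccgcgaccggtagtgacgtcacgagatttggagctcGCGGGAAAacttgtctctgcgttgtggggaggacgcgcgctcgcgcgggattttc
MCM6, chr2:135876444-135876603, minus strand: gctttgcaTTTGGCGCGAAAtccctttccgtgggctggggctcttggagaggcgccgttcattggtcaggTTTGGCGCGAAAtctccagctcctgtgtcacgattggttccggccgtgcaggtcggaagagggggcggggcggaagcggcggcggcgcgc
E2F1, chr20:33686386-33686545, minus strand: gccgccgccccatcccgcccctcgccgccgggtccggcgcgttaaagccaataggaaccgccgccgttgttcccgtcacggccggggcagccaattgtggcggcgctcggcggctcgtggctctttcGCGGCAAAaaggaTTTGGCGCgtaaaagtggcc
TYMS, chr18:657493-657652, plus strand: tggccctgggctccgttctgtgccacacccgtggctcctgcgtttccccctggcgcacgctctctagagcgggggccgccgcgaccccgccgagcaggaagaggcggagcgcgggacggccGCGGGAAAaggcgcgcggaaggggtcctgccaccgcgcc

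The values are probe set signals on a linear scale, and changes are log2 differences from limma with their standard errors (SE). A gene is said to have risen or fallen where the Benjamini-Hochberg adjusted p, over the 12678 genes above a filter on low values, was under 0.05. All 49 replication genes passed that filter. In simulated data 24 of 162 calls at 72 h were of unchanged genes, so 72 h calls near the threshold are less certain than their adjusted p. The simulation changed 67, 67 and 66 of the 12678 genes by 0.25, 0.5 and 1 on the log2 scale, while 3378 were called here. The share of false calls depends on how many genes change, so 24 of 162 is not an estimate for these calls. Replicates correlated less well at 72 h (Spearman's rho with the rest of the group 0.958 to 0.971) than at 6 h (0.985 to 0.987) or in DMSO (0.989 to 0.990). Replicates 2 and 3 of the 72 h group had upper quartiles of 97.5 and 99.7, where the remaining arrays had 112 to 119.1. The ratio of 3′ to 5′ signal of the ACTB control was 2.07 to 2.21 at 72 h, 1.74 to 2.05 at 6 h and 1.91 to 2.01 for DMSO. The 8 epithelial, ductal and line markers were all above the filter, with summed signals of 44400 to 45910 at 72 h, 51540 to 51730 at 6 h and 51250 to 52300 for DMSO, and 5 of the 8 fell at 72 h. Among markers of other cells, 1 of 7 leukocyte, 3 of 7 fibroblast and 1 of 5 endothelial genes were above it. These were ITGAM (mean signal 20.7), COL1A1 (566), THY1 (66.8), DCN (29.9) and PECAM1 (20.2). COL1A1 was thus brighter than EPCAM (458) of the PANC-1 markers. Of those below the filter, PTPRC, LYZ, LUM and KDR averaged 7.58, 7.70, 7.35 and 7.41, where the lowest signal on any array was 4.54. The part of these markers and of RNA quality in the results below was not tested.

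After 72 h of BRD7552, 28 of the 49 replication genes fell, 2 rose and 19 did not pass the test. Over all genes 26.6% were called at 72 h, 18.3% as lower and 8.33% as higher, against 57.1% lower and 4.08% higher among the replication genes. The list was chosen with earlier results of these data known, so the shares are a description and not an independent test. The replication genes varied less between the 72 h arrays (median standard deviation 0.091 on the log2 scale, beside 0.13 over all genes). Small changes in them are therefore easier to call, and the part of this in the shares was not tested. The falls were small: the largest was 0.67 on the log2 scale, and the median over the 49 genes was -0.18, beside -0.062 over all genes. The arrays at 72 h lay wholly below those of DMSO for 31 of the 49 and wholly above for 3, where the shares over all genes were 24.9% and 12%. The share of falls among called genes depends on the scaling over all genes (68.7% as deposited, 54.3% after quantile normalization, 52.5% after cyclic loess). For the replication genes 26 fell and 2 rose after quantile normalization, and 25 fell and 3 rose after cyclic loess. Of all genes 15.6% and 15.1% fell under these scalings. With each array centred on its median, 15 of the replication genes fell and 1 rose, where 9.99% of all genes fell. MCM4 (-0.27), MCM5 (-0.18), MCM7 (-0.20) and POLD3 (-0.28) were among those that no longer passed. Fits that weigh arrays by their spread, with a weight per array or 1 per group, each gave 24 falls and 2 rises. Of all genes 18.7% and 14.9% fell in these fits. The number that rose was also 1 without 72 h replicate 1 or 2 and without DMSO replicate 1 or 3. From bulk RNA, fewer cells expressing a gene and less RNA per cell cannot be told apart.

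**Figure D1:**
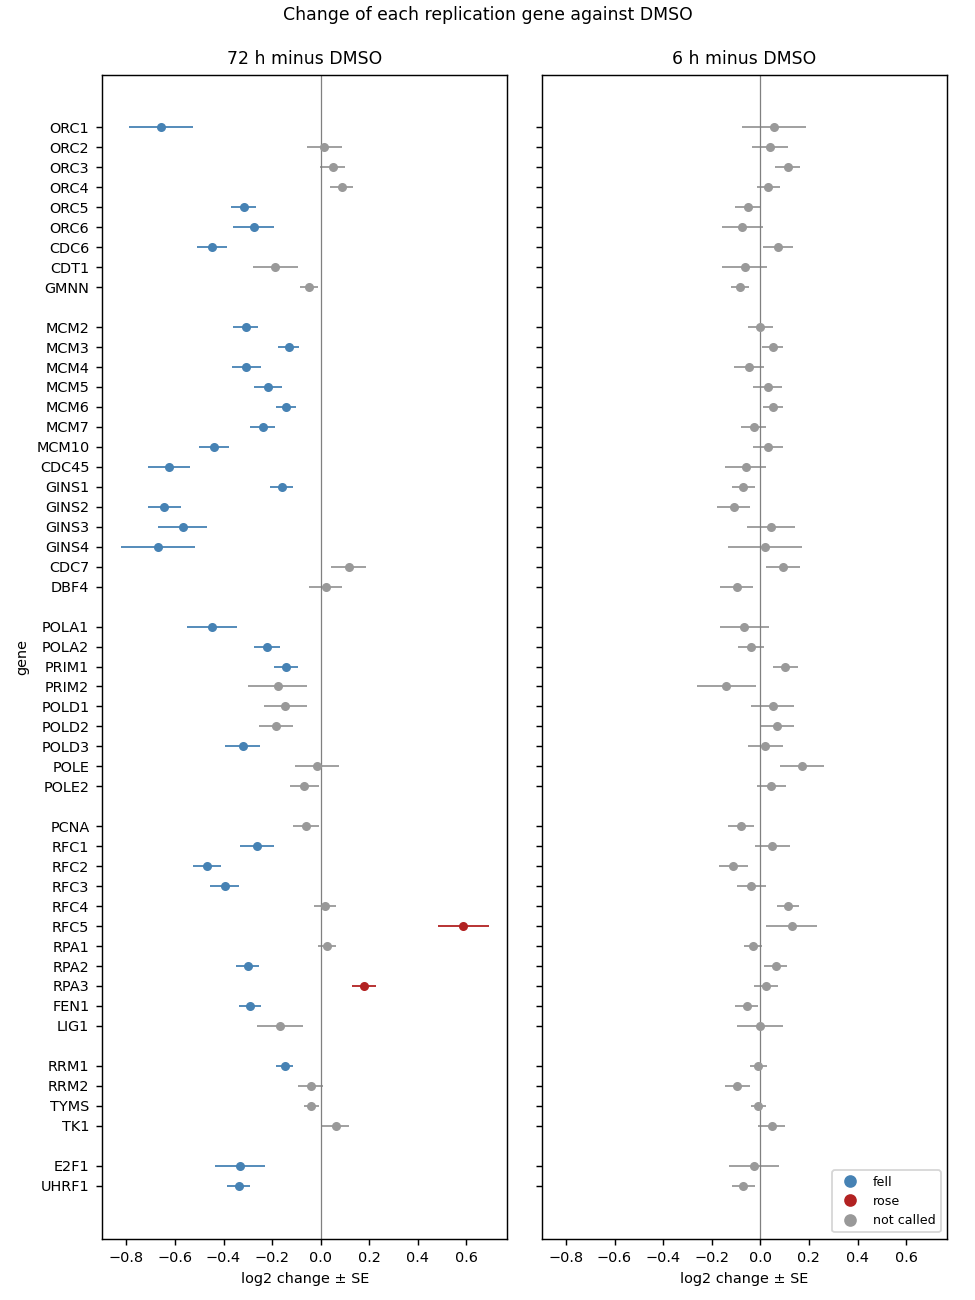
The log2 change of each of the 49 replication genes with its standard error (horizontal bars) is shown for 72 h minus DMSO (left) and 6 h minus DMSO (right), 3 arrays per group, in blue for genes that fell, red for genes that rose and grey for genes not called. At 72 h 28 genes are blue and 2 red, with GINS4, ORC1, GINS2 and CDC45 farthest to the left, while at 6 h all 49 are grey.

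After 6 h none of the 49 replication genes was called by limma, and 3 had an unadjusted p under 0.05 (ORC3, GMNN and RFC4). Over all genes 0.473% were called at 6 h, 0.11% as lower and 0.363% as higher, and 582 of the 12678 had an unadjusted p under 0.05. The changes at 6 h ran from -0.14 for PRIM2 to 0.17 for POLE on the log2 scale, with a median of 0.00062 over the 49 genes and -0.00095 over all genes. The 6 h arrays lay wholly below DMSO for 4 genes (GMNN, GINS2, RFC2 and FEN1) and wholly above for ORC3 and RFC4, or 8.16% and 4.08% of the 49, where 5.94% and 6.26% of all genes did. GMNN, the inhibitor of licensing, had signals of 1750, 1755 and 1798 at 6 h and 1853, 1919 and 1842 in DMSO, a log2 change of -0.082 ± 0.037 that did not pass. RFC4, a clamp loader subunit, had 1417, 1322 and 1272 at 6 h and 1232, 1263 and 1210 in DMSO (log2 0.11 ± 0.046, adjusted p = 0.877). None of the alternatives tried led to a call at 6 h.

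Among the licensing factors ORC1, CDC6, ORC5 and ORC6 fell at 72 h (44.4%, beside 18.3% of all genes) and the other 5 did not pass. ORC1, the origin recognition subunit that comes and goes with the cell cycle, had signals of 117, 94.8 and 76.1 on the 72 h arrays, 142, 166 and 158 on the 6 h arrays and 152, 151 and 144 on the DMSO arrays. Every 72 h array was below every other array, the third replicate most of all, while 6 h and DMSO overlapped. The change at 72 h was 0.634-fold (log2 -0.66 ± 0.13, adjusted p = 0.00181). CDC6, the loader that brings the MCM ring to the origin recognition complex, had 382, 379.8 and 366 at 72 h, 552, 496 and 573 at 6 h and 507, 508 and 523 in DMSO. The 72 h values sat close together below both other groups (0.733-fold, log2 -0.45 ± 0.062, adjusted p = 9.14e-05), and the other CDC6 probe set changed by -0.35 (adjusted p = 0.00957 over all probe sets). ORC5, a constitutive subunit of the same complex, had 546, 571 and 526 at 72 h and 704, 661 and 682 in DMSO, without overlap (0.802-fold, log2 -0.32 ± 0.052, adjusted p = 0.000402). ORC6, the smallest subunit, had 434, 372 and 472 at 72 h and 502, 519.9 and 519 in DMSO, where 72 h replicate 2 was lowest (0.826-fold, log2 -0.28 ± 0.084, adjusted p = 0.0237). It no longer passed without 72 h replicate 2 (-0.18), or without DMSO replicate 1, 2 or 3 (-0.29, -0.27 and -0.27), nor with median centring (-0.24), cyclic loess (-0.22) or no variance trend (-0.28).

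The remaining licensing genes stood on both sides of 0. ORC2, ORC3 and ORC4, the core subunits, stood at 0.015, 0.049 and 0.086 on the log2 scale, and GMNN at -0.048. CDT1, the licensing factor that geminin binds, had signals of 154, 168 and 139 at 72 h and 168, 188 and 168 in DMSO, which overlapped (log2 -0.19 ± 0.094, adjusted p = 0.164). Its dimmer probe set stood at -0.34, also without a call, and with the probe sets of each gene averaged CDT1 fell by 0.26.

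In the helicase group 12 of the 14 genes fell at 72 h (85.7%, beside 18.3% of all genes). Only CDC7 and DBF4, the kinase and its activator, did not pass. All 6 subunits of the MCM ring, which unwinds DNA ahead of the fork, fell by 0.13 to 0.31 on the log2 scale. MCM2 had 1510, 1703 and 1467 at 72 h, 1985, 1894 and 1911 at 6 h and 1936, 1894 and 1956 in DMSO. Its 72 h arrays were below all others (0.807-fold, log2 -0.31 ± 0.051, adjusted p = 0.0004). MCM4 had 722, 784 and 692 at 72 h and 841, 911 and 964 in DMSO (0.809-fold, log2 -0.31 ± 0.062, adjusted p = 0.00188), and MCM7 had 947, 1035 and 988 at 72 h and 1172, 1119 and 1210 in DMSO (0.848-fold, log2 -0.24 ± 0.051, adjusted p = 0.00302). MCM5 had 612, 628 and 551 at 72 h and 675, 695 and 710.2 in DMSO, without overlap (0.86-fold, log2 -0.22 ± 0.058, adjusted p = 0.012), and passed, though not without DMSO replicate 3 (-0.20). MCM6 and MCM3 showed the smallest falls, at 0.906-fold (log2 -0.14 ± 0.041, adjusted p = 0.0179) and 0.912-fold (log2 -0.13 ± 0.045, adjusted p = 0.041). MCM6 had 1664, 1693 and 1626 at 72 h and 1760, 1834 and 1907 in DMSO, and lost its call under 7 of the 20 alternatives, among them without 72 h replicate 3 (-0.13) or DMSO replicate 3 (-0.11), with either set of array weights and with probe sets averaged (-0.12). MCM3 had 1405, 1375 and 1326 at 72 h and 1438, 1549 and 1515 in DMSO, and lost its call under 13 of the 20 alternatives. These were the fits without 72 h replicate 2 or 3 (-0.14 and -0.11), without 6 h replicate 2 (-0.13) and without DMSO replicate 2 or 3 (-0.11 and -0.13), with median centring (-0.095), without the filter or the trend, with probe sets averaged, with either set of array weights, with only 2 groups, and with the replicate number as a block (-0.13).

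The factors that join the ring to make the active helicase all fell at 72 h, by 0.16 to 0.67 on the log2 scale. CDC45, which completes the helicase with GINS, had 219.9, 188 and 174 at 72 h, 295, 287 and 275 at 6 h and 298, 302 and 294 in DMSO. All 72 h arrays were below all others (0.649-fold, log2 -0.62 ± 0.085, adjusted p = 7.54e-05). GINS2 had 389, 345 and 326 at 72 h, 494, 534 and 504 at 6 h and 542, 560.5 and 549.9 in DMSO, so that the 3 groups did not overlap one another (0.64-fold at 72 h, log2 -0.64 ± 0.068, adjusted p = 6.76e-06). The promoter printed above for GINS2 has its single E2F-type match 31 bases before the start. GINS3 had 144, 126 and 115 at 72 h and 184, 199 and 186 in DMSO (0.675-fold, log2 -0.57 ± 0.1, adjusted p = 0.000727). GINS4 had 117, 68.3 and 80.4 at 72 h and 144, 141 and 128 in DMSO (0.628-fold, log2 -0.67 ± 0.15, adjusted p = 0.00428). In GINS4 the first 72 h replicate was close to DMSO and the other two were far below. With probe sets averaged the falls were -0.37 for GINS2 and -0.39 for GINS4. GINS1, the remaining subunit of the GINS complex, had 1487, 1472 and 1499 at 72 h and 1613, 1767 and 1610 in DMSO (0.894-fold, log2 -0.16 ± 0.047, adjusted p = 0.0185). That call was lost without 72 h replicate 2 (-0.15) and without DMSO replicate 2 (-0.12), with median centring (-0.12), without the trend and with either set of array weights. MCM10, which helps to start unwinding, had 431, 443 and 393 at 72 h and 543, 587 and 588 in DMSO (0.737-fold, log2 -0.44 ± 0.061, adjusted p = 9.24e-05).

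CDC7 and DBF4, which phosphorylate the MCM ring to fire an origin, overlapped between the groups. CDC7 had 413, 362 and 370 at 72 h and 359, 368 and 329 in DMSO (log2 0.11 ± 0.071, adjusted p = 0.263), with a 95% interval of 0.976 to 1.2 for the ratio to DMSO, and passed as higher after cyclic loess (0.18). DBF4 had 1354, 1316 and 1291 at 72 h and 1291, 1371 and 1245 in DMSO (log2 0.021 ± 0.068, adjusted p = 0.865, interval 0.917 to 1.12).

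**Figure D2:**
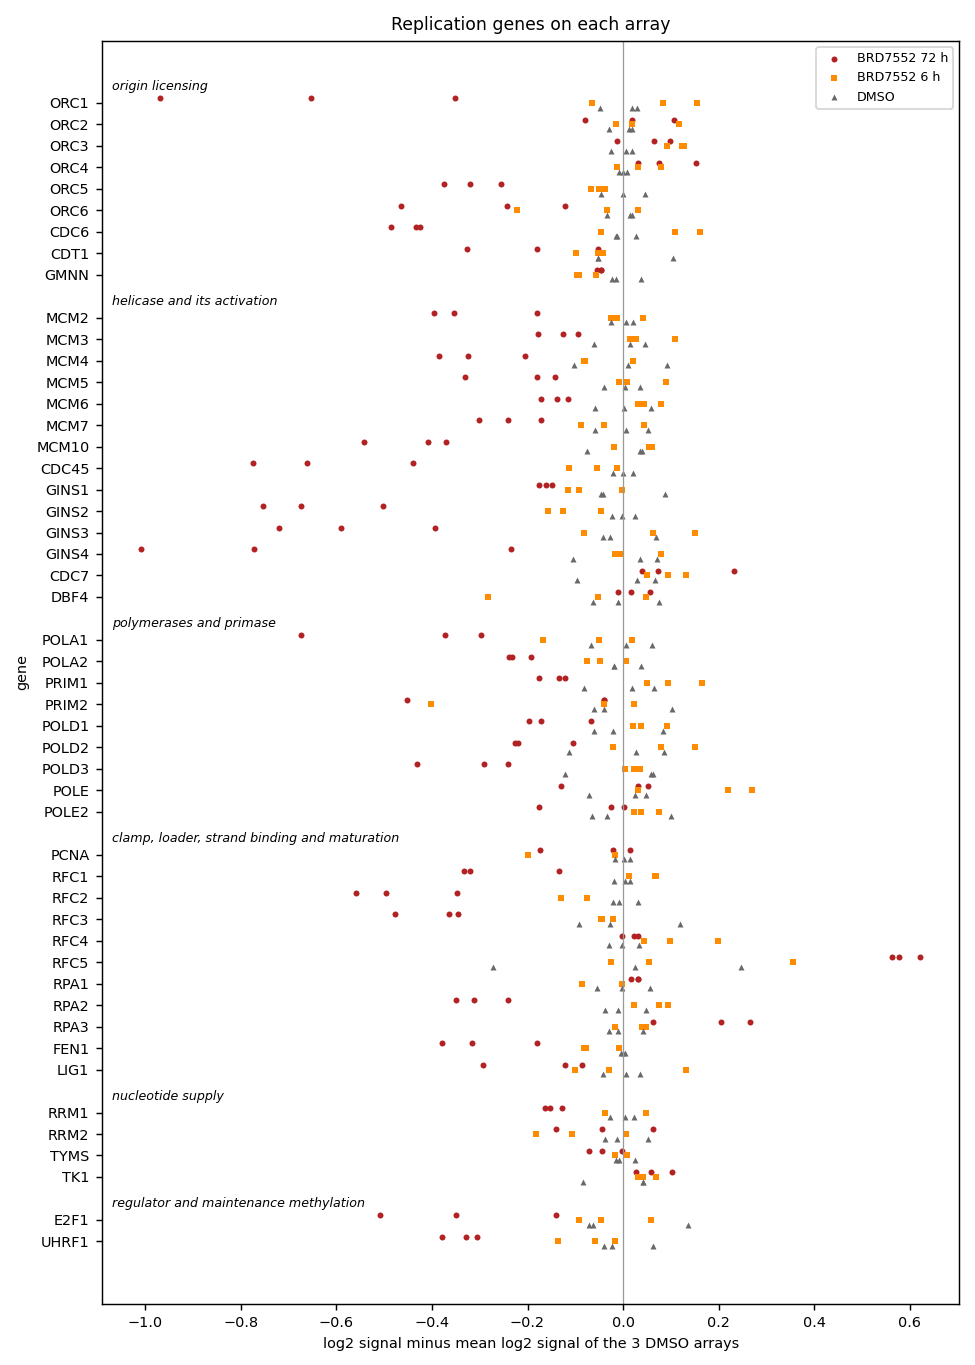
Each point is 1 array, plotted as the log2 signal of a replication gene minus the mean log2 signal of that gene on the 3 DMSO arrays, with BRD7552 72 h as red circles, BRD7552 6 h as orange squares and DMSO as grey triangles. The red circles of CDC45, GINS2, GINS3 and MCM10 lie apart to the left, those of GINS4 and ORC1 are widely spread, those of RFC5 lie to the right, and the squares and triangles mostly mix around 0.

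Of the 9 polymerase and primase genes, POLA1, POLD3, POLA2 and PRIM1 fell at 72 h (44.4%, beside 18.3% of all genes). The other 5 stood below 0 without passing. POLA1, the catalytic subunit of polymerase alpha, which makes the starting stretches of each new strand with primase, had 176, 168 and 136 at 72 h and 207, 218 and 226 in DMSO. The 72 h and DMSO arrays did not overlap (0.733-fold, log2 -0.45 ± 0.1, adjusted p = 0.00416). Its partner subunit POLA2 had 464, 478 and 463 at 72 h and 539, 538 and 560.3 in DMSO (0.858-fold, log2 -0.22 ± 0.053, adjusted p = 0.0064), and did not pass with median centring (-0.18) or probe sets averaged (-0.15). POLD3, an accessory subunit of the lagging-strand polymerase delta, had 347, 336 and 304 at 72 h and 377, 429 and 427 in DMSO (0.8-fold, log2 -0.32 ± 0.071, adjusted p = 0.00356). PRIM1, the catalytic primase subunit, had 919, 928 and 893 at 72 h, 1131, 1044 and 1077 at 6 h and 953, 1055 and 1022 in DMSO. The 72 h arrays were lowest and the spread between the other groups was wide (0.905-fold, log2 -0.14 ± 0.05, adjusted p = 0.047). The PRIM1 call ended under 17 of the 20 alternatives, the replicate block and every scaling among them, and without 72 h replicate 1, 2 or 3 (-0.15, -0.16 and -0.13), without 6 h replicate 2 or 3 (-0.14 each) and without DMSO replicate 2 or 3 (-0.11 and -0.13). POLE, the catalytic subunit of the leading-strand polymerase epsilon, had 187, 189.9 and 167 at 72 h and 174, 186 and 189 in DMSO (log2 -0.016 ± 0.091, adjusted p = 0.926, interval 0.865 to 1.13 for the ratio). POLE2, POLD1, POLD2 and PRIM2 stood at -0.067, -0.15, -0.18 and -0.18. POLD2 fell without DMSO replicate 1 (-0.24), and 4 probe sets that name PRIM2 together with its pseudogene PRIM2BP were left out.

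Replication factor C, the ring that opens PCNA and sets it on DNA, had subunits that fell, rose or did not pass. RFC2 had 551, 497 and 476 at 72 h, 641, 665 and 641 at 6 h and 716, 690.2 and 696 in DMSO, again without overlap between any 2 groups (0.723-fold at 72 h, log2 -0.47 ± 0.059, adjusted p = 3.49e-05). RFC3 had 707, 717 and 654 at 72 h and 855, 989 and 893 in DMSO (0.76-fold, log2 -0.40 ± 0.058, adjusted p = 0.00015). Its promoter, printed above, holds a match 55 bases before the start. RFC1, the large subunit, had 288, 254 and 251 at 72 h and 317, 319.5 and 312 in DMSO and fell (0.834-fold, log2 -0.26 ± 0.071, adjusted p = 0.0128), though not with median centring (-0.22) or probe sets averaged (-0.17), while RFC4 had 1262, 1233 and 1255 at 72 h and 1232, 1263 and 1210 in DMSO and did not pass (log2 0.017 ± 0.046, adjusted p = 0.833).

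RFC5 was called higher by its brightest probe set and lower by another. The brightest had 1786, 1843 and 1768 at 72 h, 1176, 1244 and 1533 at 6 h and 1218, 1421 and 992 in DMSO, a rise of 1.5-fold (log2 0.59 ± 0.11, adjusted p = 0.000816). Its DMSO and 6 h arrays varied widely, and its 72 h arrays did not. The second RFC5 probe set had 582, 551 and 529 at 72 h and 580.4, 576 and 573 in DMSO (log2 -0.059, not called). The third had 168, 129 and 135 at 72 h and 191, 197 and 196 in DMSO and was lower by 0.45 on the log2 scale (adjusted p = 0.0178 over all probe sets). With the probe sets averaged, RFC5 stood at 0.027 at 72 h against DMSO and was not called. In RefSeq the RFC5 gene overlaps WSB2 on chromosome 12, and the 1 probe set of WSB2 stood at 0.13 ± 0.046 (adjusted p = 0.123 over all probe sets). WSB2 was looked at after the RFC5 values were seen. The direction of RFC5 is uncertain because its probe sets disagree.

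PCNA, the sliding clamp, did not pass at either time. Its signals were 4438, 4554 and 3994 at 72 h, 3924, 4452 and 4452 at 6 h and 4452, 4515 and 4552 in DMSO, and all groups overlapped. At 72 h the log2 change was -0.06 ± 0.053, with an interval of 0.887 to 1.04 for the ratio to DMSO (adjusted p = 0.454).

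Replication protein A, which coats single-stranded DNA at the fork, had 1 subunit that fell, 1 that rose and 1 that did not pass. RPA2 had 861, 819.6 and 799 at 72 h, 1086, 1034 and 1071 at 6 h and 1010, 991 and 1052 in DMSO, with 72 h apart below the others (0.812-fold, log2 -0.30 ± 0.048, adjusted p = 0.000283). RPA3, named here after its values were seen as the other gene that rose, had 2273, 2182 and 1975 at 72 h and 1854, 1946 and 1877 in DMSO (1.13-fold, log2 0.18 ± 0.049, adjusted p = 0.0143). The third 72 h replicate lay just above DMSO, and the rise no longer passed without 72 h replicate 1 or 2 (0.13 and 0.16) or without DMSO replicate 1 or 3 (0.16 and 0.17), nor with median centring (0.22) or without the trend. In each of those cases 1 replication gene rose. RPA1, the large subunit, stood at 0.026 ± 0.038. FEN1, the flap nuclease that trims lagging-strand fragments, had 2413, 2198 and 2102 at 72 h and 2736, 2744 and 2725 in DMSO (0.817-fold, log2 -0.29 ± 0.046, adjusted p = 0.000298), without overlap. LIG1, the ligase that then joins them, had 150.4, 134 and 154 at 72 h and 159, 164 and 168 in DMSO and did not pass (log2 -0.17 ± 0.095, adjusted p = 0.223).

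By their brightest probe sets, 1 of the 4 genes of nucleotide supply fell at 72 h and 3 did not pass. That is 25%, close to the 18.3% of all genes called lower. RRM1, the large subunit of ribonucleotide reductase, had 3828, 3922 and 3856 at 72 h and 4297, 4351 and 4206 in DMSO and was the 1 that fell (0.903-fold, log2 -0.15 ± 0.035, adjusted p = 0.00556). It did not pass with median centring (-0.11) or without the trend, and stood at -0.30 with probe sets averaged. RRM2, its cell cycle regulated subunit, had 6537, 6991 and 7525 at 72 h, 6351, 6692 and 7234 at 6 h and 7020, 7465 and 7137 in DMSO, with all groups overlapping (log2 -0.04 ± 0.052, adjusted p = 0.628, interval 0.901 to 1.05 for the ratio at 72 h). TYMS, thymidylate synthase, had 6152, 5979 and 5864 at 72 h and 6123, 6272 and 6096 in DMSO (log2 -0.039 ± 0.031, adjusted p = 0.399, interval 0.929 to 1.02). TK1, the salvage kinase for thymidine, had 553, 569.8 and 541 at 72 h and 501, 546 and 546 in DMSO (log2 0.063 ± 0.055, adjusted p = 0.457, interval 0.962 to 1.13).

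Further probe sets of RRM1 and TYMS were called lower at 72 h. The second RRM1 probe set had 412, 368 and 371 at 72 h and 495, 514 and 569.7 in DMSO, a log2 change of -0.46 (adjusted p = 0.00136 over all probe sets). A second TYMS probe set had 1398, 1372 and 1316 at 72 h and 1559, 1660 and 1595 in DMSO, a log2 change of -0.24 (adjusted p = 0.0138). The other probe sets of RRM2 and TK1 stood at -0.056 and -0.024 and were not called.

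E2F1 and UHRF1 both fell at 72 h. E2F1, which switches on many genes of S phase, had 143, 159.9 and 185 at 72 h, 212, 198 and 191 at 6 h and 195, 194 and 224 in DMSO. The 72 h arrays were the lowest and were spread out, with the third replicate near the 6 h values (0.794-fold, log2 -0.33 ± 0.1, adjusted p = 0.0253). Its call was lost without 72 h replicate 1 or 2 (-0.25 and -0.32) and without DMSO replicate 3 (-0.27), and under each other scaling, at -0.24 with quantile normalization, -0.24 with cyclic loess and -0.30 with median centring. UHRF1, which brings the maintenance methyltransferase DNMT1 to newly copied DNA, had 1166, 1184 and 1126 at 72 h, 1333, 1406 and 1448 at 6 h and 1440, 1530 and 1425 in DMSO. All 72 h arrays were below all others (0.791-fold, log2 -0.34 ± 0.046, adjusted p = 8.2e-05).

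For the genes called at 72 h, further probe sets mostly shared the sign of the one used. Among genes not called, those of ORC4 (-0.24), RPA1 (-0.083 and -0.35) and TK1 (-0.024) had the opposite sign, none called. Those of ORC2, CDT1, RRM2 and TYMS above the filter had the same sign. Of 26 other probe sets above the filter that belong to genes called at 72 h, 24 had the same sign, 11 were called the same way over all 54675 probe sets, and 1, of RFC5, was called the opposite way. A larger change than that of the probe set used was seen in 8 of the 26. For MCM4 other probe sets stood at -0.48 and -0.63, both called over all probe sets, and at -0.45 and -0.051, neither called. The second GINS2 probe set above the filter stood at -0.024. In a separate fit and adjustment over all probe sets, the used probe sets of 22 replication genes passed at 72 h, in place of 30 over the filtered genes.

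**Figure D3:**
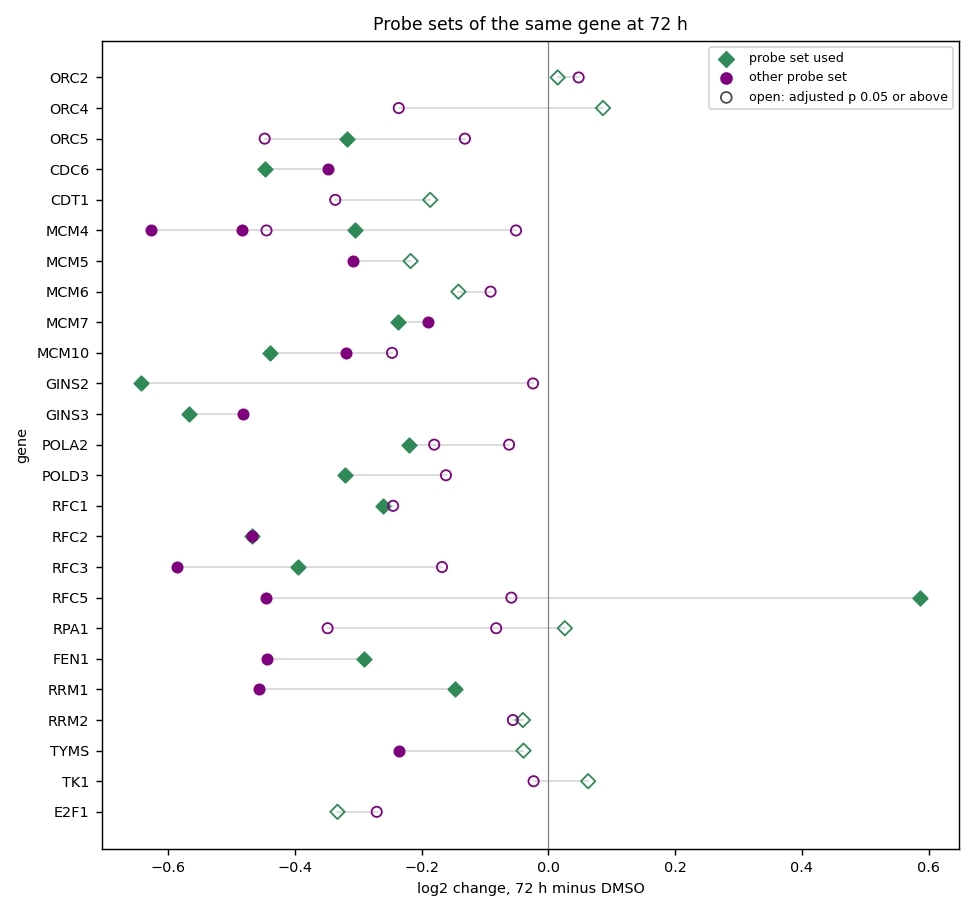
For the replication genes with more than 1 probe set above the filter, the log2 change at 72 h minus DMSO is plotted for the probe set used (green diamonds) and the others (purple circles), filled where the p adjusted over all probe sets was under 0.05. Most genes lie left of 0, the diamonds of MCM5, MCM6 and E2F1 are open in this fit over all probe sets, and RFC5 spans from -0.45 to 0.59.

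Set directly against 6 h, 27 of the 49 genes were lower at 72 h and 2 higher (RFC5 and RPA3). Over all genes 24% were called, 16.7% as lower and 7.28% as higher. RFC5 was higher by its brightest probe set only. Its other probe sets stood at -0.12, not called, and at -0.52, called lower (adjusted p = 0.00875 over all probe sets). ORC1 had the largest difference at -0.71 ± 0.13 (adjusted p = 0.00125), then GINS4 at -0.69 ± 0.15 and GINS3 at -0.61 ± 0.1. With probe sets averaged GINS4 stood at -0.26 and did not pass. CDC6 differed by -0.52 ± 0.062 (adjusted p = 3.5e-05). POLD2 was lower at 72 h than at 6 h, with 375, 408 and 377 at 72 h and 464, 487 and 432 at 6 h (log2 -0.25 ± 0.07, adjusted p = 0.0162), and did not pass against DMSO. The POLD2 call against 6 h was lost under 6 of the 20 alternatives: without 6 h replicate 2 (-0.21), with median centring (-0.22), quantile normalization (-0.20) or cyclic loess (-0.19), and with either set of array weights. GINS1 and ORC6 fell against DMSO and did not pass against 6 h (-0.091 and -0.20). The number higher was 1 without 72 h replicate 1 or 2 and without 6 h replicate 1, 2 or 3, where RPA3 did not pass. ORC6 passed against 6 h without 72 h replicate 3 (-0.28) and without 6 h replicate 1 (-0.27).

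Lists of related genes outside the 49 were counted in the same way, to be read beside the 18.3% of all genes called lower at 72 h and the 8.33% called higher. They too were chosen with earlier results of these data known. Of 22 fork accessory and checkpoint genes 12 fell, 1 rose and 9 did not pass, with a median log2 change of -0.17. CLSPN, which passes the stalled fork signal to CHEK1, fell to 0.659-fold (log2 -0.60 ± 0.1, adjusted p = 0.000444). WDHD1, which ties polymerase alpha to the helicase, fell to 0.672-fold (log2 -0.57 ± 0.13, adjusted p = 0.00463), POLD4, a small polymerase delta subunit, to 0.715-fold, and DSCC1, of an alternative clamp loader, to 0.759-fold. TOP2A, the topoisomerase that peaks in G2, was the 1 that rose, at 1.22-fold (log2 0.29 ± 0.087, adjusted p = 0.0224). It had 3994, 3111 and 3982 at 72 h and 2895, 3140 and 2976 in DMSO, so that 72 h replicate 2 lay within the DMSO values.

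Of 10 chromatin genes coupled to replication, 4 fell, 1 rose and 5 did not pass (median -0.049). The falls were CHAF1B and CHAF1A, subunits of the histone chaperone at the fork, at 0.76-fold (log2 -0.39 ± 0.1, adjusted p = 0.0104) and 0.818-fold, ASF1B, another histone chaperone, at 0.827-fold, and DNMT1 at 0.882-fold. Of 16 other nucleotide synthesis genes tested, 7 fell and 9 did not pass (median -0.14). TYMP, thymidine phosphorylase, had the largest fall at 0.652-fold (log2 -0.62 ± 0.13, adjusted p = 0.00322). UMPS and CTPS1, enzymes of pyrimidine synthesis, fell to 0.825-fold and 0.839-fold, and ATIC, of purine synthesis, to 0.902-fold.

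Of 26 cyclins, CDKs and E2F-RB regulators, 11 fell, 2 rose and 13 did not pass (median -0.18). CDC25A, the phosphatase that activates CDK2, fell to 0.595-fold (log2 -0.75 ± 0.1, adjusted p = 9.35e-05) and CDKN1A, the inhibitor p21, to 0.641-fold. CDKN1B, the CDK inhibitor p27, had 645, 674 and 659.8 at 72 h, 391, 475 and 486 at 6 h and 346, 406 and 342 in DMSO, a rise of 1.81-fold at 72 h (log2 0.86 ± 0.085, adjusted p = 3.51e-06), with every 72 h array above all others. CDKN1C, the related inhibitor p57, was the other that rose, at 1.47-fold (log2 0.55 ± 0.16, adjusted p = 0.0179). In the mitosis list of 25, rises numbered 7, falls 3 and genes that did not pass 15, around a median of 0.028. PTTG1, the securin, rose 1.19-fold, KIF11, a spindle motor, 1.19-fold, and UBE2C, the ubiquitin carrier of mitotic exit, fell to 0.761-fold, as did AURKB, a chromosome passenger kinase, at 0.828-fold. At 6 h limma called 0 genes in these 5 lists, with 1, 1, 1, 6 and 4 at an unadjusted p under 0.05 in the order given. Over all genes 582 of 12678 were under 0.05 at 6 h.

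**Figure D4:**
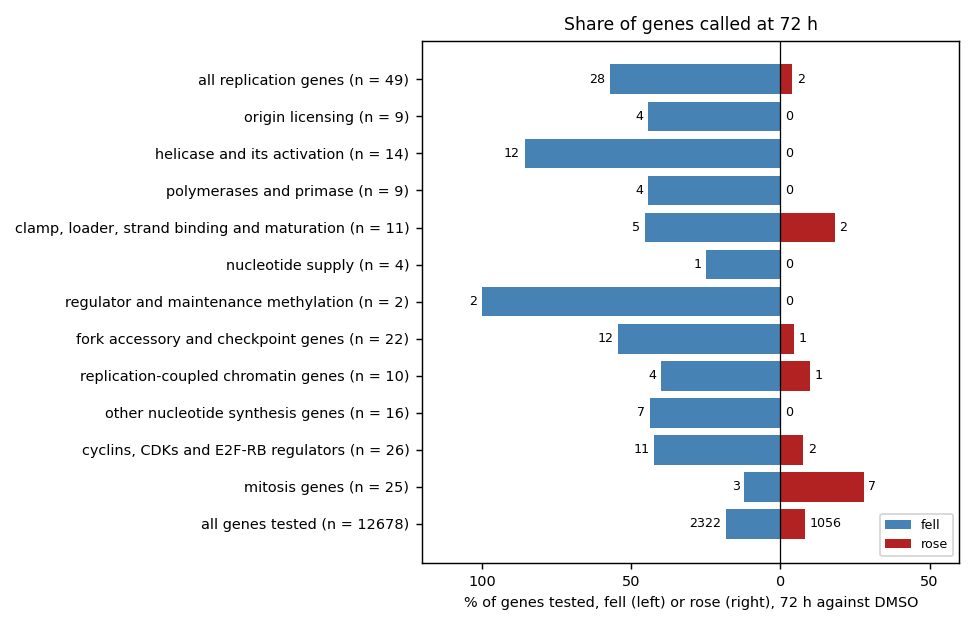
Bars give the percentage of tested genes that fell (blue, to the left) or rose (red, to the right) at 72 h against DMSO, for the 49 replication genes, their classes, the related lists and all 12678 genes, with the number of genes at each bar's end. The replication genes stand at 57.1% lower and 4.08% higher, beside 18.3% and 8.33% over all genes, and the mitosis list at 12% lower and 28% higher.

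E2F-type letters were frequent in the promoters of the replication genes, including genes that did not pass at 72 h. A match to any of the 4 spellings, on either strand, was found in 18 of 43 promoters (41.9%), in 5.14% of the promoters of tested genes and in 3.27% of all 27305 promoters of the same length. Among the genes that fell, 12 of 23 promoters held a match, and among those not called, 6 of 19. No test was made of that difference. The 6 were ORC3, CDT1, POLE, POLE2, LIG1 and TYMS. Genes that fell without a match were ORC1, ORC5, ORC6, MCM7, MCM10, CDC45, PRIM1, RFC1, RFC2, FEN1 and RRM1. Matches overlapped one another in MCM2 and MCM6, and MCM6 held 4 of them, as the long capitals in its printed sequence show. A CCAAT box (letters CCAAT, either strand) was found in 24 of 43 promoters, or 55.8%, against 36.1% for tested genes. The cell cycle homology element of mitotic genes (TTTGAA or TTCGAA, either strand) was found in 3 of 43, or 6.98%, against 11.2%. A match of letters is not a bound site, and the motifs were chosen with the results known.

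**Figure D5:**
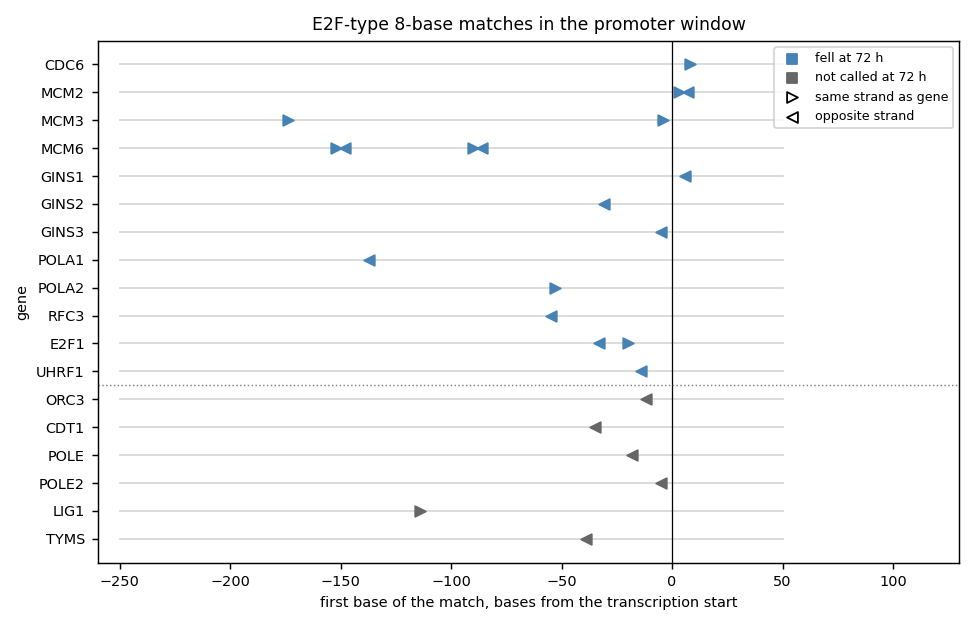
Triangles mark the first base of each E2F-type match from the transcription start, pointing right for the strand of the gene and left for the opposite strand, in the 18 promoters of replication genes that hold one, with grey lines for the searched window. The 12 genes that fell at 72 h (blue, upper rows) and the 6 not called (grey, lower rows) both have most of their matches close to the start, and MCM3, MCM6, POLA1 and LIG1 have matches farther upstream.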

How the data were processed

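The authors deposited a single table of linear probe set intensity for 9 arrays hybridised with biotinylated cRNA, per the labels' protocols. MAS5 is named, per the submitters' processing notes, without a version or scaling. Some arrays share a value to the last digit, at 59.2% of probe sets and for 14 of the 49 genes, which can make a spread too small; the cause was not tested. The number of arrays limits the precision.

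Values were used as deposited and log2 transformed. The platform annotation gave 1 gene symbol for 41097 of the 54675 probe sets, several for 1801 and no symbol for 11777, and only the first kind were named. Of several probe sets of a gene the one with the highest mean log2 signal was used, and genes below the median probe set (log2 4.16) were left out. All 9 arrays entered 1 linear model (limma 3.58.1, R 4.3.3, moderated variances with a trend), and p-values were adjusted over all 12678 genes. Values given over all probe sets come from a separate fit of all 54675, with its own variance trend and adjustment. The fit was tested on data simulated with the spread of each group, where more unchanged genes passed at 72 h than the threshold allows. The 72 h arrays were simulated with the widest spread, as in the data (median standard deviation 0.13, beside 0.075 at 6 h and 0.067 in DMSO). The model estimates 1 spread per gene over all groups, which is too small for such 72 h arrays. The part of this in the calls was not tested.

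The genes, lists and motifs were chosen with earlier results of these data known. Named one by one were the 4 largest called changes per class at 72 h, the 5 MCM subunits other than MCM4, PCNA, E2F1, UHRF1 and CDC6, and up to 4 genes per related list. Others are named to account for every gene. Same-numbered arrays did not deviate together (correlations from -0.26 to 0.20), so numbers were not taken as pairs. Alternatives covered scaling, filter, probe set rule, pseudocount, variance model, array weights, the replicate number as a block and leaving out each array.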

Additional observations from a re-analysis of the deposited data

Results flagged for a closer look

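By limma's test of 72 h against 6 h, the change from DMSO differed between the exposure times for 29 of the 49 replication genes. It is the test of that difference because both share the DMSO arrays. Over all genes 24% were called by it, 16.7% as lower and 7.28% as higher. The values below are log2 differences, 72 h minus 6 h. Licensing factors were lower at 72 h by this test for ORC1 (-0.71), ORC5 (-0.27) and CDC6 (-0.52). In the MCM ring the differences were -0.31 for MCM2, -0.18 for MCM3, -0.26 for MCM4, -0.25 for MCM5, -0.19 for MCM6 and -0.21 for MCM7. The helicase activators MCM10 (-0.47), CDC45 (-0.56), GINS2 (-0.53), GINS3 (-0.61) and GINS4 (-0.69) differed more by the probe sets used. For polymerases and primase they were -0.38 for POLA1, -0.18 for POLA2, -0.25 for PRIM1, -0.25 for POLD2 and -0.34 for POLD3. Clamp loader and strand genes differed by -0.31 (RFC1), -0.36 (RFC2), -0.36 (RFC3), -0.36 (RPA2) and -0.24 (FEN1), while RFC5 (0.46) and RPA3 (0.15) were higher at 72 h. Another RFC5 probe set was called lower (-0.52), so its direction is uncertain. RRM1 (-0.14), E2F1 (-0.31) and UHRF1 (-0.27) complete the set. Some of these calls rest on the processing. E2F1 passed under 4 of the 20 alternatives. It was lost without 72 h replicate 1 or 2 (-0.22 and -0.30), 6 h replicate 1, 2 or 3 (-0.26, -0.32 and -0.34) or DMSO replicate 1 or 2 (-0.31 each), with median centring (-0.28), quantile normalization (-0.20) or cyclic loess (-0.21), with array weights (-0.26) or 1 weight per group, without the filter or the trend, with only 2 groups, and with the replicate number as a block (-0.31). RPA3 was lost under 10, without 72 h replicate 1 or 2 (0.11 and 0.14) or 6 h replicate 1, 2 or 3 (0.16, 0.13 and 0.17), with median centring (0.18), without the filter or the trend, with only 2 groups and with 1 weight per group. POLA2 was lost under 9, without 6 h replicate 1 or 2 (-0.16 and -0.19), with median centring (-0.15), quantile normalization (-0.14), cyclic loess (-0.13), probe sets averaged (-0.21), either set of array weights or only 2 groups. POLD2 was lost under 6, without 6 h replicate 2 (-0.21) and with median centring (-0.22), quantile normalization (-0.20), cyclic loess (-0.19) or either set of array weights. POLA1 was lost without 6 h replicate 2 (-0.34), and RRM1 without 6 h replicate 3 (-0.11) and without the trend. MCM3 (without the trend), RFC5 (without the trend, or with 1 weight per group), and with probe sets averaged ORC5 (-0.26), MCM6 (-0.12) and GINS4 (-0.26), were lost as well. Median centring also ended the calls of ORC5, MCM3 to MCM7, POLA1, PRIM1, RFC1, FEN1, RRM1 and UHRF1.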

How the results depend on the processing

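Of the 30 replication genes called at 72 h against DMSO, 15 kept their call under all 20 alternatives, 18 under all but median centring, and 22 without any 1 array. The 15 were ORC1, ORC5, CDC6, MCM2, MCM10, CDC45, GINS2, GINS3, GINS4, POLA1, RFC2, RFC3, RPA2, FEN1 and UHRF1. With arrays centred on their medians, 15 genes fell and 1 rose at 72 h against DMSO, and 12 were lower and 1 higher at 72 h against 6 h; the cause was not tested. The number of genes that rose at 72 h against DMSO, 2 as reported, was 1 with probe sets averaged and without the variance trend. The number higher at 72 h than at 6 h, also 2, was 1 without the filter, with probe sets averaged and with only the 2 groups compared, and 0 without the trend and with 1 array weight per group. With probe sets averaged RFC5 turned to -0.060 at 72 h against 6 h, which follows from its other probe sets. Leaving out 1 array gave 22 to 28 falls and 1 to 2 rises at 72 h against DMSO (median -0.22 to -0.17), 23 to 28 lower and 1 to 2 higher against 6 h (median -0.21 to -0.17), and 0 to 0 of either at 6 h (median -0.0070 to 0.020). With the replicate number as a block, 26 genes fell and 2 rose at 72 h, 26 were lower and 2 higher against 6 h, and 0 were called at 6 h; the block ended the calls of MCM3 and PRIM1 at 72 h and of E2F1 against 6 h, and no other. Array weights per group and the fit of only 2 groups were chosen after seeing the data, and gave 24 and 26 falls at 72 h. Over all genes, 3378 were called at 72 h and 2086 with median centring, 3037 and 1782 against 6 h, and 60 at 6 h, where the alternatives ran from 23 to 211. The share of all genes that fell at 72 h was 18.3% as reported and 9.99% with median centring. It was 17.2% with the block, 14.9% with 1 weight per group and 15.5% with only 2 groups. Leaving out 1 array gave 12.4% to 26%.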
